A study of Mus musculus with 12 samples.

Results

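The genes described here encode the chains of the IL-12 family of cytokines: Il12a, Il12b, Il23a, Il27 and Ebi3. They were chosen by symbol, all were listed in every library, and they are 5 of the 23997 genes in the files. RNA-seq was performed on bone marrow-derived macrophages (BMDMs) of WT and Pim1-/- mice, both C57BL/6, and the labels give the donors of the marrow as males aged 8 to 10 weeks. Marrow cells were grown in 10 ng/ml macrophage colony-stimulating factor (M-CSF) for 7 d and were then left untreated or given LPS, the ligand of TLR4, at 100 ng/ml for 4 h. Each of the 4 groups (WT untreated, Pim1-/- untreated, WT with LPS and Pim1-/- with LPS) held 3 libraries. The Pim1-/- mice carry a CRISPR/Cas9 deletion of exons I to V of the kinase gene Pim1. The labels do not name separate mice or cultures, and all p-values therefore measure the spread between these libraries, which may be technical.

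The cytokines of this family are secreted as pairs of chains. IL-12 joins p35 (Il12a) to p40 (Il12b), IL-23 joins p19 (Il23a) to the same p40, IL-27 joins p28 (Il27) to EBI3 (Ebi3), and IL-35 joins p35 to EBI3. Macrophages and dendritic cells transcribe these genes when a Toll-like receptor is engaged, through factors of the NF-κB, IRF, AP-1 and PU.1 families. IL-12 drives interferon-γ production by T and NK cells, IL-23 sustains T cells that make IL-17, and IL-27 both promotes and restrains T cell responses.

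In GENCODE M21 on GRCm38, Il12a lies on chromosome 3 from 68690644 to 68698547 on the + strand, Il12b on chromosome 11 from 44400063 to 44414033 on the + strand, and Il23a on chromosome 10 from 128296139 to 128298752 on the - strand. Il27 lies on chromosome 7 from 126589010 to 126594941 on the - strand, and 103 of its 1021 exonic nucleotides are shared with Apobr on the other strand. Ebi3 lies on chromosome 17 from 55952640 to 55957022 on the + strand, and 270 of its 1154 exonic nucleotides are shared with the antisense gene Gm16712. The library kit keeps the strand, but the strand setting of the counting is not given in the sources used here. Reads from the shared parts can be told apart only if strand was used. Apobr was at 60.8 to 61.5 FPKM in WT and 47.9 to 54.5 FPKM in Pim1-/- libraries with LPS, and Gm16712 at 27.8 to 28.6 and 8.32 to 8.98 FPKM. With LPS both were far below Il27 and Ebi3 in the same libraries, whose values are given further on. Without LPS Gm16712 was at 0.463 to 1.10 FPKM, below Ebi3, but Apobr was at 23.9 to 29.8 FPKM, far above Il27 at 0.0975 to 0.518 FPKM. The untreated values of Il27, and the folds that rest on them, could therefore hold reads of Apobr if strand was not used, which was not tested.

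The bases before the transcription start are shown for Il12b, Ebi3 and Il12a, because Il12b was higher and Ebi3 and Il12a were lower in Pim1-/- cells after LPS. They were read from the RefSeq promoters of GRCm38.p6, which matched 3 of the 5 genes (Il12a with 2 starts; not Il23a or Il27), and each line holds the 250 bases before the start, 5′ to 3′ on the + strand. Capitals mark matches on either strand to the motifs searched. The core of a κB site was searched as GGGAA. The letters for PU.1, a factor that marks the myeloid lineage, were GAGGAA. An AP-1 site was searched as TGANTCA. The interferon-stimulated response element, where IRF factors bind, was searched as GAAANNGAA, and C/EBP as TTNNGCAA. The TATA box was searched as TATAAA.
Il12b, chr11:44399813-44400062: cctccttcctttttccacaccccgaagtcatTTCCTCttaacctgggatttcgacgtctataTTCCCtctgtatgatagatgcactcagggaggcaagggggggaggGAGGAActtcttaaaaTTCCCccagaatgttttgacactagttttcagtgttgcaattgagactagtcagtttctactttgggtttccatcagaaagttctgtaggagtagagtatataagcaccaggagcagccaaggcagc
Ebi3, chr17:55952373-55952622: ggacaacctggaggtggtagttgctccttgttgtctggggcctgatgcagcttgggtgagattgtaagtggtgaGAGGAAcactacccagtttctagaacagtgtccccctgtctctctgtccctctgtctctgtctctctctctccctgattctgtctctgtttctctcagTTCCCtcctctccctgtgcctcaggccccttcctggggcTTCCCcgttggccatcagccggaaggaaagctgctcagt
Il12a, first start, chr3:68690394-68690643: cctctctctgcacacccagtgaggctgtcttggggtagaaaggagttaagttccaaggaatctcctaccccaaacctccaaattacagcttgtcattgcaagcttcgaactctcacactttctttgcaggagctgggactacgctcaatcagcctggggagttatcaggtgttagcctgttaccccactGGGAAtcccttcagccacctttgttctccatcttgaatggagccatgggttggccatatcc
The Il12b promoter held the κB core 127 to 123 and 188 to 184 bases before the start and the PU.1 letters 143 to 138 and 219 to 214 bases before it. The Ebi3 promoter held the κB core at 39 to 35 and 78 to 74 bases and the PU.1 letters at 176 to 171 bases. The first Il12a start had a κB core at 61 to 57 bases, and the second start, at chr3:68691174-68691423, had no match to any of the 6 motifs. Among all 32851 promoters of the table, 56.2% held the κB core and 23.3% the PU.1 letters in the same window. The other shares were 12.4% for the TATA box, 9.56% for C/EBP, 7.13% for the interferon-stimulated response element and 6.75% for AP-1, none of which matched in the 3 sequences shown. A match describes the letters only and says nothing of binding.

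Without treatment the level of Pim1 itself was 22.93 ± 1.80 FPKM (SD, n = 3) for WT and 8.73 ± 0.752 for Pim1-/- cells, and it was 645.4 ± 17.8 and 218.9 ± 15.6 with LPS, or 38.1% and 33.9% of WT. The value covers the whole gene, including the part outside the deletion. The files name no unit, and their values were taken to be FPKM, fragment numbers divided by transcript length and by a factor of each library. This allows levels of different genes in a library to be set side by side. The size of 1 fragment in FPKM, estimated from low values of 2558 genes with a single transcript, gave 31980000 to 40820000 fragments in genes per library. The factor of a library did not follow this estimated depth. For 1 kb, 1 FPKM stood for 20.85 fragments in WT LPS replicate 3 and 37.6 in WT untreated replicate 1. Their estimated fragments were 32170000 and 32450000. The estimates of fragments and all intervals drawn from them cover counting error only, and the intervals of ratios cover that of the denominator only. The sums of FPKM ranged from 452511 to 849323, and scaling each library to its estimated fragments shifted the median genotype difference of all genes after LPS from -0.03 to 0.19 on the log2 scale. It turned the split of genes called in that comparison from 545 lower and 371 higher to 273 lower and 595 higher.

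Before LPS only Ebi3 was above 1 FPKM. Values of single libraries are given in the order of their replicate numbers. Il12a was listed at 0 in all 6 untreated libraries, where 3 fragments would have been 0.0592 to 0.0723 FPKM. Il23a was listed at 0 in the 3 WT libraries and at 0, 0.0214 and 0 FPKM in the Pim1-/- libraries, the single value above 0 being about 1 fragment. Neither gene reached 3 fragments in any untreated library. Il12b was at 0.0301, 0.0141 and 0.0388 FPKM in WT, about 2, 1 and 3 fragments, and at 0.136, 0.0284 and 0.0258 FPKM in Pim1-/- libraries, about 11, 2 and 2 fragments. Il27 was at 0.518, 0.0975 and 0.309 FPKM in WT and 0.128, 0.242 and 0.307 FPKM in Pim1-/- libraries, between 3 and 16 fragments each. For both genes the libraries of the genotypes overlapped. Ebi3, the chain shared by IL-27 and IL-35, stood at 31.6, 31.6 and 31.0 FPKM in WT libraries and 14.5, 12.9 and 15.8 FPKM in Pim1-/- libraries, with no overlap.

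After LPS all 5 genes were detected in every library, at levels from 0.652 to 1321 FPKM. Il12b, the common p40 chain, was at 1005, 1046 and 988 FPKM in the WT and 1250, 1321 and 1086 FPKM in the Pim1-/- libraries. All Pim1-/- values were above all WT values, and the library nearest to WT was replicate 3. Il12a, the p35 chain, was at 13.9, 14.4 and 14.5 FPKM in WT and 7.51, 7.62 and 6.90 FPKM in Pim1-/- libraries, which were all lower. Il23a, the p19 chain, was at 1.14, 0.689 and 0.652 FPKM in WT and 1.19, 1.49 and 1.75 FPKM in Pim1-/- libraries. The highest WT library and the lowest Pim1-/- library of Il23a nearly met, at about 31 and 45 fragments. Il27, the p28 chain, was at 1104, 1026 and 1063 FPKM in WT and 488, 466 and 487 FPKM in Pim1-/- libraries. Ebi3 was at 556, 529 and 553 FPKM in WT and 217, 208 and 234 FPKM in Pim1-/- libraries. The gap between genotypes was wide against the spread within each genotype for both chains of IL-27.

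**Figure D1:**
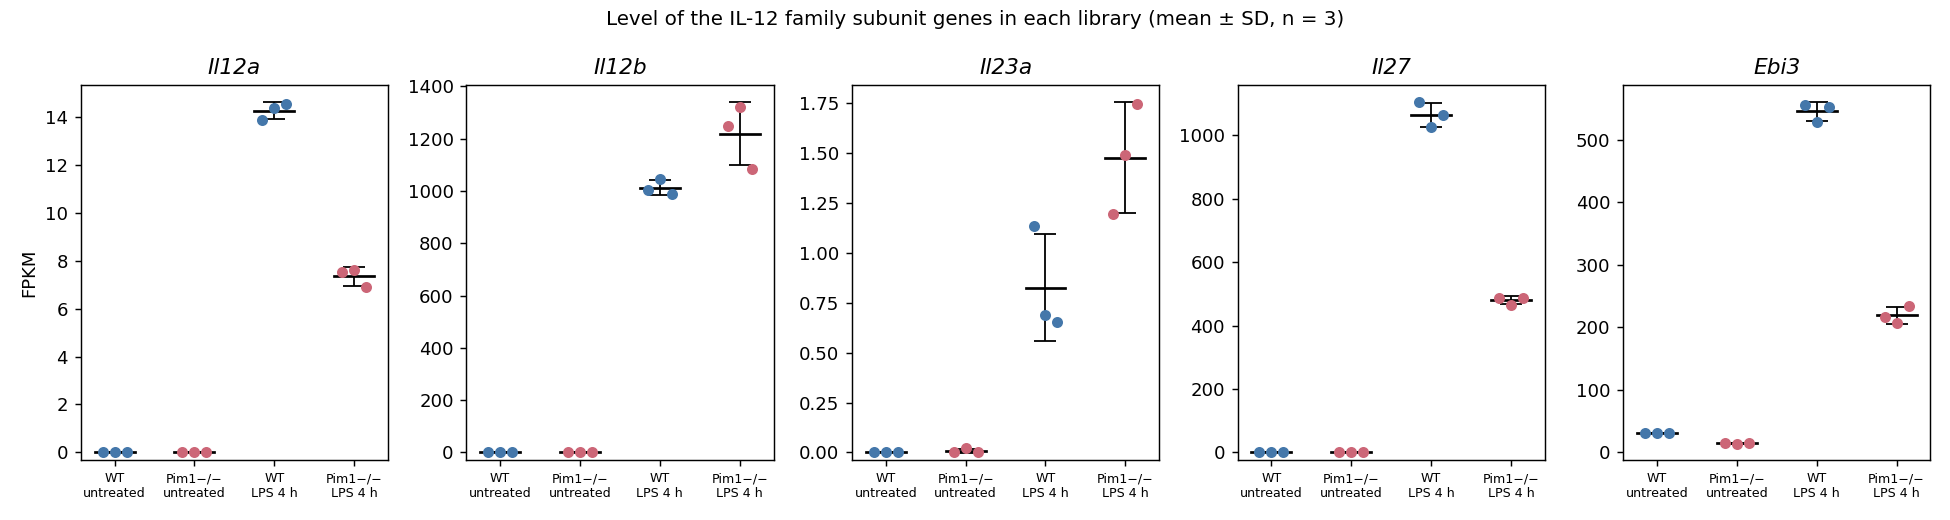
Level of the 5 subunit genes in FPKM (linear axes from 0, 1 panel per gene, each with its own scale) in the 12 libraries, with bars at the mean and whiskers of 1 SD (n = 3). After LPS the Pim1-/- libraries lie below WT for Il12a, Il27 and Ebi3 and above WT for Il12b and Il23a; among untreated libraries the Ebi3 values (12.9 to 31.6 FPKM) stand clear of 0.

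In WT cells with LPS the order of the mean levels was Il27 (1064 ± 38.9 FPKM, SD, n = 3), Il12b (1013 ± 29.6), Ebi3 (545.8 ± 14.9), Il12a (14.25 ± 0.347) and Il23a (0.826 ± 0.269). The ranges of Il27 and Il12b overlapped there, whereas the other neighbours were apart. In Pim1-/- cells with LPS the order was Il12b (1219 ± 120 FPKM), Il27 (480.0 ± 12.6), Ebi3 (219.6 ± 13.6), Il12a (7.34 ± 0.387) and Il23a (1.48 ± 0.277), with no overlap between neighbours. Among all genes Il12b ranked 144 in WT and 102 in Pim1-/- cells, Il27 139 and 251, and Ebi3 268 and 502. Il12a ranked 4420 and 5904, and Il23a 9664 and 9085. The coefficient of variation after LPS was 2.44% to 9.87% for the other 4 genes and 32.6% in WT and 18.7% in Pim1-/- cells for Il23a, whose values rest on 16 to 57 fragments a library.

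The comparison of genotypes after LPS asked how the loss of Pim1 bears on the cytokine genes that TLR4 induces. Ebi3 and Il27 were lower in Pim1-/- cells, at 40.2% and 45.1% of the WT mean, and Il12a stood at 51.5%. Il12b and Il23a were higher, at 120% and 179%. Differences were tested with limma on log2(FPKM + 1) over the 10581 genes that reached 1 FPKM in 3 or more libraries. The added 1 shrinks the fold change of genes with low values. A gene was called if the fold was above 2, p below 0.05 and the FDR by Benjamini-Hochberg below 0.1. Of the 5 genes, 2 were called, where the share of all genes called was 8.66%. Both were lower, where 5.15% of all genes were called lower. The log2 fold change was -1.31 for Ebi3 (SE 0.06, adjusted p = 2.8e-11) and -1.15 for Il27 (SE 0.09, adjusted p = 9.2e-09). Il12a had -0.87 (SE 0.05, adjusted p = 3.8e-10), Il12b 0.26 (SE 0.06, adjusted p = 0.00133) and Il23a 0.44 (SE 0.09, adjusted p = 4.2e-04), all inside the 2-fold limit. At an FDR below 0.05 with no fold limit all 5 genes passed, as did 77.4% of all genes, and the libraries of the genotypes did not overlap in any of the 5, as in 77.5% of all genes. Il23a entered the test through its 3 Pim1-/- libraries and 1 WT library with LPS, and so mostly through the genotype in which it was higher.

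The calls of Il27 and Ebi3 lay close to the 2-fold limit and moved with the scaling. Scaled to estimated fragments Ebi3 was at -1.01 and stayed called, while Il27 was at -0.85 and was not. Scaled to the sum of FPKM Il27 was at -0.94 and not called, and under quantile normalization Ebi3 was at -0.97 and not called. In the 23 alternatives tried the sign of every genotype difference after LPS was kept, with ranges of -1.36 to -0.97 for Ebi3, -1.17 to -0.85 for Il27, -0.95 to -0.58 for Il12a and 0.20 to 0.56 for Il12b, and, in 22 of them, 0.30 to 0.79 for Il23a. The adjusted p of Il12b was 0.185 with a pseudocount of 0.1, its highest value over the alternatives, and 8.1e-07 at its lowest.

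**Figure D2:**
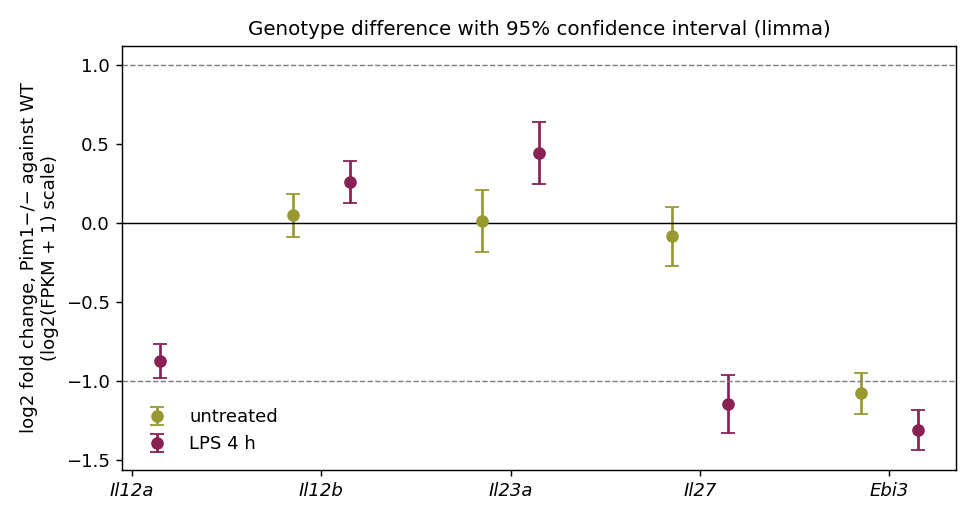
Log2 fold change of Pim1-/- against WT cells on the log2(FPKM + 1) scale for untreated and LPS-treated cells, with 95% confidence intervals from limma; dashed lines mark 2-fold. Ebi3 lies below the lower line in both states (-1.08 and -1.31) and Il27 only with LPS (-1.15), while Il12b and Il23a lie above 0 with LPS; Il12a is not drawn for untreated cells, where it was listed at 0.

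Among untreated cells Ebi3 was the only subunit gene called between genotypes. Its mean was 31.39 ± 0.379 FPKM (SD, n = 3) in WT and 14.40 ± 1.48 FPKM in Pim1-/- cells, or 45.9% of WT. Its log2 fold change was -1.08 (SE 0.06, adjusted p = 3.2e-10, limma), and it was called, as were 7.78% of all genes. It was -0.97 and no longer called when scaled to estimated fragments. Il27 stood at 73.2% of WT, on 24 and 30 fragments summed over the libraries of Pim1-/- and WT cells. The ratio of 0.732 had an interval of 0.513 to 1.09, which covers the counting error of the 30 WT fragments alone. With the error of the 24 Pim1-/- fragments it would be wider. The log2 fold change of Il27 was -0.08, with an adjusted p of 0.39 (limma). Leaving out WT replicate 2, the library with 3 fragments, gave -0.20 with an adjusted p of 0.0162, and leaving out WT replicate 1 gave 0.029 with an adjusted p of 0.74, the adjusted p being 0.0162 to 0.82 over the alternatives. Il12b had a log2 fold change of 0.05 (95% interval -0.09 to 0.18, adjusted p = 0.50) and Il23a of 0.01 (adjusted p = 0.93). At an FDR below 0.05 without a fold limit Ebi3 passed alone among the 5, where 74.7% of all genes passed.

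LPS raised Il12b from the edge of detection to among the most abundant mRNAs in both genotypes. The ratio of mean FPKM with and without LPS was 36608 in WT (counting interval 16819 to 99755) and 19203 in Pim1-/- cells (11643 to 34310), the untreated means resting on 6 and 15 fragments in all. Pim1-/- untreated replicate 1 held 11 of those 15, and without it the ratio in Pim1-/- cells was 44999 (17575 to 165154), above that of WT, so the order of the genotypes rested on that library. For Il27 it was 3453 (2419 to 5117) in WT and 2127 (1429 to 3319) in Pim1-/- cells. In WT it was 5232 (3119 to 9571) without WT untreated replicate 1 and 2573 (1769 to 3905) without WT untreated replicate 2. In Pim1-/- cells it was 1748 (1119 to 2903) without Pim1-/- untreated replicate 1 and 2595 (1517 to 4873) without Pim1-/- untreated replicate 3. For both genes the counting intervals of the genotypes overlapped. Ebi3, which had a level before treatment, rose 17.4-fold (16.8 to 18.0) in WT and 15.3-fold (14.6 to 16.0) in Pim1-/- cells. None of these intervals covers the scaling between libraries. No fold is given for Il12a, or for Il23a in WT cells, since they were listed at 0 without LPS. On the log2(FPKM + 1) scale 4 of the 5 genes were called in WT cells, where 34.8% of all genes were called: Il12b (9.95), Il27 (9.68), Ebi3 (4.08) and Il12a (3.93). Il23a was at 0.86 (adjusted p = 2.5e-07), inside the 2-fold limit. It passed that limit at 3.17 with a pseudocount of 0.1 and at 1.08 under quantile normalization, and its lowest value over the alternatives was 0.66. In Pim1-/- cells all 5 were called, where 25% of all genes were called: Il12b (10.16), Il27 (8.62), Ebi3 (3.84), Il12a (3.06) and Il23a (1.29). The response of Ebi3 was 3.11 to 4.12 in WT and 3.20 to 3.92 in Pim1-/- cells over the alternatives. Scaling to estimated fragments moved the median of all genes from 0.0015 to -0.70 in WT and from -0.013 to -0.59 in Pim1-/-. In WT the genes called went from 1556 lower and 2130 higher to 3859 lower and 1152 higher. In Pim1-/- cells they went from 1103 and 1546 to 2862 and 968. At an FDR below 0.05 without a fold limit all 5 passed in each genotype, beside 89.3% (WT) and 84.6% (Pim1-/-) of all genes. Il12a, Il12b, Il23a and Il27 were under 1 FPKM in every untreated library and passed the filter only through libraries with LPS. Their calls between treatments are therefore not independent of the filter.

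An interaction term tested the 2 responses against each other, which asks whether LPS acted more or less in the absence of Pim1. On the log2(FPKM + 1) scale it was -1.06 for Il27 (SE 0.12, adjusted p = 2.5e-06), the only subunit gene called, where 6.67% of all genes were called. The value for Il27 depended on the low untreated levels and on scaling: it was -0.93 with a pseudocount of 0.1 (adjusted p = 0.0647, in a range of 1.7e-07 to 0.0647 over the alternatives), -0.94 without WT untreated replicate 2, and -0.77 when scaled to estimated fragments, and in none of these was the gene called. Il12a was at -0.87 (adjusted p = 5.7e-08), which equals its difference after LPS because both untreated groups were at 0. Il23a was at 0.43 (adjusted p = 0.0091). Ebi3 was at -0.23 (95% interval -0.42 to -0.05, adjusted p = 0.0273), beside genotype differences of -1.08 without treatment and -1.31 with LPS. Under quantile normalization the Ebi3 value was 0.23, with the opposite sign. Il12b was at 0.21 (adjusted p = 0.0459) and turned to -0.034 with a pseudocount of 0.1. Without a fold limit all 5 genes passed an FDR below 0.05, beside 62.9% of all genes.

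Because each cytokine needs its 2 chains, the ratio of the chains was taken within each library with LPS. The mRNA of p40 was in excess of that of p35 in every library with LPS. The ratio of Il12b to Il12a was 72.5, 72.8 and 68.0 in WT and 166, 173 and 157 in Pim1-/- libraries. The means were 71.1 ± 2.69 and 165.8 ± 7.99 (SD, n = 3), a 2.33-fold difference, or 1.22 on the log2 scale. The libraries did not overlap, and the two-sided exact permutation test gave p = 0.1, the smallest that 3 against 3 allows. This difference ranged from 1.13 to 1.29 over the alternatives tried. It joins the lower Il12a and the higher Il12b described above and is not a separate observation.

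The other ratios moved less. The ratio of Il12b to Il23a was 884, 1517 and 1515 in WT and 1047, 885 and 622 in Pim1-/- libraries, which overlapped (exact permutation p = 0.3). The ratio of Ebi3 to Il27, the 2 chains of IL-27, was 0.503, 0.515 and 0.520 in WT and 0.444, 0.446 and 0.481 in Pim1-/- libraries, with means of 0.513 ± 0.00863 and 0.457 ± 0.0209. Both chains were lower, and the difference of the ratios, -0.17 on the log2 scale (exact permutation p = 0.1), turned to 0.033 under quantile normalization. The ratio of Ebi3 to Il12a, the chains of IL-35, was 40.1, 36.8 and 38.1 in WT and 28.9, 27.3 and 34.0 in Pim1-/- libraries, a difference of -0.36 (exact permutation p = 0.1). Over these 4 ratios the p-values adjusted by Benjamini-Hochberg were 0.133, 0.3, 0.133 and 0.133 in the order given.

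**Figure D3:**
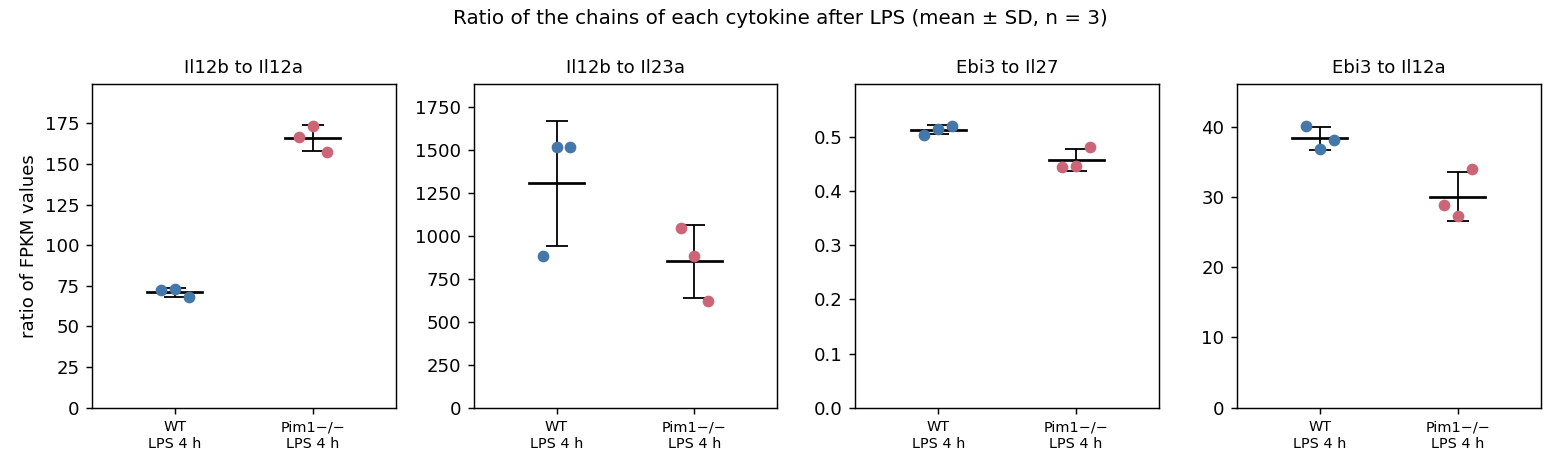
Ratio of FPKM values of the paired chains in each LPS-treated library (linear axes from 0), with bars at the mean and whiskers of 1 SD (n = 3). The Il12b to Il12a ratio lies at 68.0 to 72.8 in WT and 157 to 173 in Pim1-/- libraries, while the Il12b to Il23a ratios of the genotypes overlap.

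The receptor chains of these cytokines were at lower levels than Il12b, Il27 and Ebi3 in cells given LPS. Il12rb2, a chain of the IL-12 receptor, had means of 4.72 and 5.69 FPKM in LPS-treated WT and Pim1-/- cells (log2 fold change 0.23), and Il6st, the gp130 chain used by IL-27, means of 5.67 and 4.72 FPKM (-0.22). Il12rb1, shared by the receptors of IL-12 and IL-23, was at 0.581 and 0.224 FPKM, Il23r at 0.154 and 0.0756 FPKM and Il27ra at 0.220 and 0.183 FPKM. These last 3 were not tested, being under 1 FPKM. Il6st was higher without LPS, with means of 21.9 (WT) and 9.94 FPKM (Pim1-/-), and was called lower in untreated Pim1-/- cells (-1.07, adjusted p = 2.4e-10, limma) and lower after LPS in WT (-1.78). Among the 11 receptor, JAK and STAT genes listed, 8 were tested and 2 were called after LPS, both lower in Pim1-/- cells. Of all genes 8.66% were called, and 5.15% were called lower. The 2 called were Stat3, the factor that many gp130 receptors activate (129 and 40.7 FPKM, log2 fold change -1.64), and Jak1, a kinase bound to gp130 (134.0 and 53.9 FPKM, -1.30). The median of the 8 was -0.57, where that of all genes was -0.03. Scaled to estimated fragments 1 of the 8 was called lower and their median was -0.27, where that of all genes was 0.19.

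Of 21 transcription factors known to act on the subunit genes, all were tested, 9 were called lower in Pim1-/- cells after LPS and none higher, where 5.15% of all genes were called lower, and their median log2 fold change was -0.73, where that of all genes was -0.03. The 4 with the largest fold were Maf, a repressor of Il12b (-1.94, 135.6 and 34.6 FPKM in WT and Pim1-/- cells), Irf8, an activator of Il12b and Il27 (-1.93, 225.7 and 58.4 FPKM), Nfil3, a repressor of Il12b (-1.90, 39.5 and 9.91 FPKM), and Batf3, a factor of the AP-1 family (-1.58, 2.60 and 0.205 FPKM). The list thus held activators and repressors that were both lower. Batf3 had means under 1 FPKM in both Pim1-/- groups (0.758 FPKM without LPS). It therefore entered the test through WT, the genotype in which it was higher. Among 8 genes that restrain these cytokines, 6 were called lower and none higher, with a median of -1.15, beside the same share and median of all genes. The 4 with the largest fold were Dusp1, a MAP kinase phosphatase (-2.82, 166.9 and 22.8 FPKM), Socs1 (-1.49, 133.8 and 47.1 FPKM) and Socs3 (-1.30, 1119 and 453.6 FPKM), inhibitors of cytokine receptor signalling, and Il10ra, a chain of the IL-10 receptor (-1.18, 143.6 and 63.0 FPKM). Scaled to estimated fragments 6 of the transcription factors and 3 of the restraining genes were called lower, and their medians were -0.42 and -0.85. With that scaling 273 of all genes were called lower and 595 higher, in place of 545 and 371, and the median of all genes was 0.19.

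Of 15 other cytokine genes of macrophages, 13 were tested, 2 were called lower and 1 higher, where 8.66% of all genes were called, 545 lower and 371 higher. This split turned with the scaling, to 1 lower and 2 higher when scaled to the sum of FPKM and 1 lower and 3 higher when scaled to estimated fragments, and it was 1 and 1 under quantile normalization. Over all genes the numbers lower and higher were 335 and 504, 273 and 595, and 364 and 326 in the same order. Il1rn, which encodes the IL-1 receptor antagonist, was at 710.1 and 179.9 FPKM (-1.98), and Il10, which is also in the list of restraining genes and encodes an anti-inflammatory cytokine, at 48.8 and 21.9 FPKM (-1.12). Csf2, which encodes GM-CSF, was at 1.31 and 21.5 FPKM (3.31). The median of the list was -0.18 with the deposited values and had the opposite sign under quantile normalization (0.088) and when scaled to the sum of FPKM (0.024) or to estimated fragments (0.12). The medians of all genes were -0.03, -0.006, 0.12 and 0.19 in the same order. The subunit genes had a median of -0.87 with the deposited values and -0.58 when scaled to estimated fragments.

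**Figure D4:**
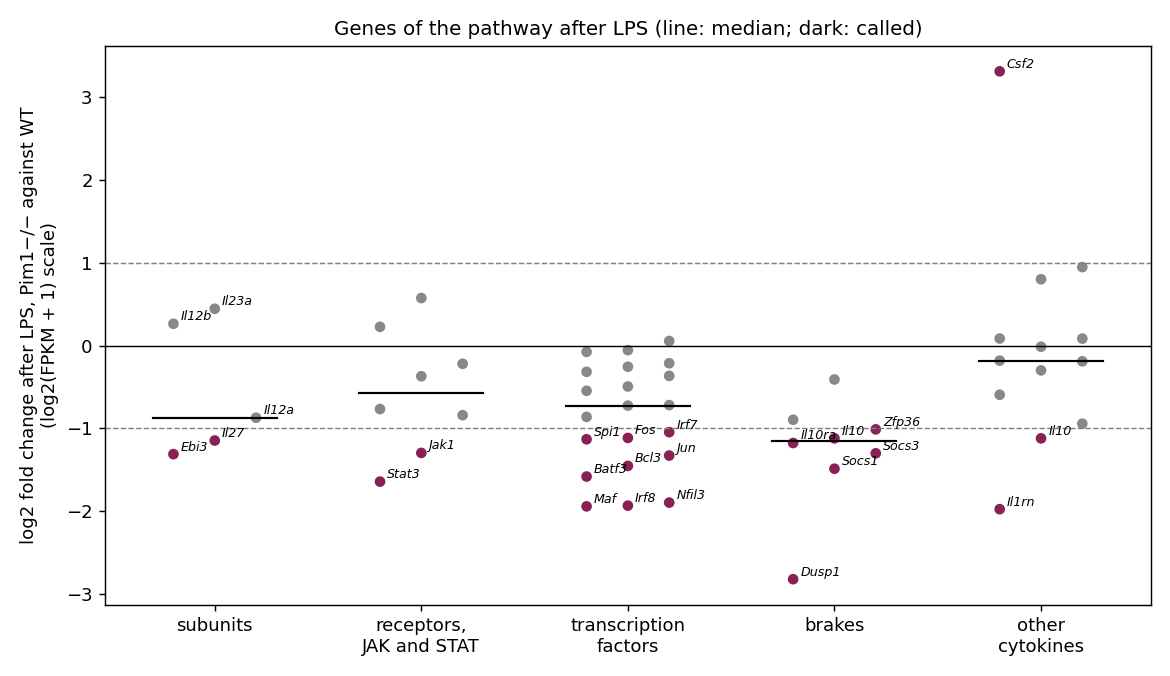
Log2 fold change of Pim1-/- against WT cells after LPS on the log2(FPKM + 1) scale for every tested gene of 5 lists (each point 1 gene, lines at the list median, dark points called, dashed lines at 2-fold). The called points lie below 0 except Csf2 (3.31), and the subunit genes run from -1.31 (Ebi3) to 0.44 (Il23a).

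The markers of the cells moved with genotype as well. All 10 macrophage markers were at 1 FPKM or more in each group. After LPS 3 of them were called lower in Pim1-/- cells and none higher, where 5.15% of all genes were called lower. The median log2 fold change of the 10 was -0.88, where that of all genes was -0.03. Scaled to estimated fragments 3 were called lower and the median was -0.59, where that of all genes was 0.19. Those called with the deposited values were Fcgr1 (-2.14), Mertk (-1.75) and Csf1r (-1.32), the receptors for IgG, for dying cells and for M-CSF. Cd68 (-0.20) and Cd14 (-0.13) moved least. The summed level of the list was 30859 to 31358 FPKM in WT and 15949 to 17814 FPKM in Pim1-/- libraries with LPS, and 27978 to 30030 and 14435 to 15352 FPKM without. Most of each sum was Lyz2, which encodes lysozyme. Of 8 dendritic cell markers, 7 were under 1 FPKM in all groups, and the list summed to 20.2 to 20.6 FPKM in WT and 3.37 to 3.80 FPKM in Pim1-/- libraries with LPS. The only one tested was Clec10a, a lectin that macrophages also express, which was called lower at 17.8 and 1.61 FPKM. The defining dendritic cell genes Flt3 and Zbtb46 were at no more than 0.241 FPKM in any group mean. Of 4 MHC class II genes, 3 were called lower after LPS, Cd74 (-1.69), H2-Eb1 (-1.41) and H2-Ab1 (-1.26), with sums of 844.1 to 889.5 FPKM in WT and 314.5 to 337.2 FPKM in Pim1-/- libraries. Scaled to estimated fragments 2 of the 4 were called lower. The lists of neutrophil, B cell, T and NK cell, and mast cell and basophil markers summed to at most 8.13, 1.57, 0.586 and 0.233 FPKM in any library, with Cd3e, Pax5, Retnlg and Fcer1a at 0 in all. In the neutrophil list 2 genes were tested, and Ly6g had no row under that name. S100a9 was called lower (3.07 and 0.776 FPKM), but not when scaled to the sum of FPKM or to estimated fragments. Its mean was under 1 FPKM in every other group, so it entered the test through WT libraries with LPS, where it was highest. S100a8 was not called after LPS (3.81 and 3.85 FPKM, -0.024) and was higher in untreated Pim1-/- cells (0.95), inside the 2-fold limit. In such bulk samples fewer cells of a type and less RNA per cell cannot be told apart, and the part of these marker differences in the values of Il12a, Il27 and Ebi3 was not tested.

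Genes with the pattern most like each subunit gene were found from the 4 group means of log2(FPKM + 1), each centred on its own mean, by the smallest root mean square difference among the 10581 genes. For Ebi3 they were Nod1 (0.036), Gbp9 (0.059) and Oas2 (0.063), an intracellular peptidoglycan sensor, an interferon-induced GTPase and an interferon-induced antiviral enzyme. Nod1 was at 3.56 and 1.04 FPKM in WT and Pim1-/- cells without LPS and at 71.2 and 28.6 FPKM with it. For Il12a they were Lpar1 (0.058), Lad1 (0.084) and Upp1 (0.084). For Il12b they were the cytokine genes Il6 (0.16) and Tnf (0.38) with Cd69 (0.37) between them. Il6 was at 1278 and 1358 FPKM in WT and Pim1-/- cells with LPS and 0.0085 and 0.0081 FPKM without it. For Il27 they were Mmp13 (0.19), Il1a (0.20) and Ptgs2 (0.23), which encode a collagenase, IL-1α and cyclooxygenase-2. For Il23a they were Cysltr1 (0.030), Ik (0.053) and Kcnab1 (0.068), a match that rests on a small movement, since Il23a was near or below 1 FPKM. Among the subunit genes themselves Il12a and Ebi3 were the closest pair (0.47) on this scale, then Il12b and Il27 (0.67), whereas Il12b and Il12a were 3.30 apart. For genes at or near 0 without LPS these distances depend on the added 1. Over the alternatives the LPS response of Il12a in WT reached 7.16, where that of Ebi3 was at most 4.12. The likeness of Il12a and Ebi3 is therefore not a feature of the genes apart from the scale.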

How the data were processed

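Stranded mRNA libraries (TruSeq) of BMDMs (12, with 3 in each of 4 groups) were sequenced by the authors, who mapped the reads with TopHat2 and computed expression with Cuffdiff. The submitters' processing notes name bcl2fastq 2.20.0.422, cutadapt 1.18, TopHat2 2.0.13, Cuffdiff 2.2.1 and mm10, while the paper's methods name the rat build rn5. For gene annotation and library scaling, the sources used here give nothing. The deposited columns name no unit and were read as FPKM, from the use of Cuffdiff and from the values. The FPKM were used as deposited. Depth was estimated because FPKM hold no counts. With the step of 1 fragment found in each library, 72.8% to 84.8% of low values of single-transcript genes lay within 0.1 of a whole number of fragments, where 20.0% would if values were uniform.

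Genes reaching 1 FPKM in 3 or more libraries were fitted with limma 3.58.1 (R 4.3.3) on log2(FPKM + 1) as 4 group means with a mean-variance trend, and p-values were adjusted over all 10581 genes. The limits of 2-fold, p of 0.05 and FDR of 0.1 follow the paper's methods. Chain ratios were compared by exact permutation (scipy 1.17.1). The fit was tested on simulated data. Members and lists were chosen with earlier results of these data known. Named genes were the 5 members, Pim1, every receptor chain, at most 4 called genes with the largest fold per list and the 3 genes most like each member. Genes named besides these (Lyz2, Flt3, Zbtb46, S100a8, markers at 0 and genes overlapping a member) were chosen after their values were seen. The marker Adgre1 was found under its older name Emr1. Alternatives covered the pseudocount, filter, scaling, threshold, trend, samples fitted, a replicate block and leaving out each library. Scaling each library to its sum of FPKM or to its estimated fragments, and leaving out each library from the ratios of mean FPKM with and without LPS, were chosen after seeing the data.

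Replicate numbers recur in all groups. Over 3646 genes at 10 FPKM or more in every library, same-numbered deviations from the group means correlated at 0.33, 0.37 and 0.46 between untreated genotypes. Between treatments of Pim1-/- cells they correlated at 0.43, 0.54 and 0.68. Between genotypes with LPS they correlated at 0.020, 0.37 and 0.19, and between treatments of WT at -0.10, 0.14 and 0.19. Correlations between libraries with different numbers were not computed, so these values cannot show whether the numbers pair libraries.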

Additional observations from a re-analysis of the deposited data

Results flagged for a closer look

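On the log2(FPKM + 1) scale the response of Il27 to LPS differed between genotypes by a test of the difference itself. It was 9.68 in WT and 8.62 in Pim1-/- cells, a difference of -1.06 (SE 0.12, adjusted p = 2.5e-06, limma). The genotype difference was -1.15 with LPS and -0.08 without it, so this value largely repeats the one with LPS. The gene was no longer called with a pseudocount of 0.1 (-0.93, adjusted p = 0.0647), under quantile normalization (-0.94), when scaled to the sum of FPKM (-0.85) or to estimated fragments (-0.77), or without WT untreated replicate 2 (-0.94). All 5 of these values lay inside the 2-fold limit, with adjusted p of 8.4e-07 to 0.0647. With LPS the 3 Pim1-/- libraries (466 to 488 FPKM) lay below the 3 WT libraries (1026 to 1104 FPKM), while without LPS both genotypes were at 0.0975 to 0.518 FPKM and overlapped. Apobr, which shares exonic bases with Il27 on the other strand, was at 23.9 to 29.8 FPKM in those untreated libraries. As a ratio of mean FPKM the response was 3453 in WT and 2127 in Pim1-/- cells, with counting intervals of 2419 to 5117 and 1429 to 3319 that overlapped, so the size of the difference rests on the few fragments seen without LPS. Macrophage markers were also lower in Pim1-/- cells, with a median of -0.88 after LPS where that of all genes was -0.03, and their part in this value was not tested.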

How the results depend on the processing

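Genotype differences after LPS kept their sign in every alternative, and fold limits rather than direction decided the calls. Of the 5 subunit genes 2 were called after LPS; 1 was called under quantile normalization (Il27), 1 scaled to the sum of FPKM and 1 scaled to estimated fragments (Ebi3 in both), and 5 at an FDR below 0.05 without a fold limit. Untreated, 1 was called, and 0 scaled to estimated fragments. For the difference in response 1 was called, and 0 with a pseudocount of 0.1, under quantile normalization, scaled to the sum of FPKM (Il27 at -0.85) and scaled to estimated fragments, and 5 without a fold limit. Leaving out each library gave 0 to 1 calls there, 0 without WT untreated replicate 2, and otherwise 2 after LPS, 1 untreated, 4 for LPS in WT and 5 for LPS in Pim1-/- cells. The cause was not tested.

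Signs turned for the Ebi3 to Il27 ratio (0.033 under quantile normalization), for Il12b untreated (-0.00075 to 0.073 over the libraries left out, lowest without Pim1-/- untreated replicate 1), for Il27 untreated (-0.20 to 0.029, highest without WT untreated replicate 1), and in the difference in response for Il12b (-0.034 with a pseudocount of 0.1) and Ebi3 (0.23 under quantile normalization). Il23a gave no value with a filter of 5 FPKM. Over all genes a pseudocount of 0.1 raised the calls after LPS from 916 to 1442 and in the difference from 706 to 1075. Without a fold limit 8194 genes passed after LPS, 7904 against 823 untreated, 9453 against 3686 for LPS in WT, 8954 against 2649 for LPS in Pim1-/- cells and 6657 against 706 in the difference.

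With the replicate number as a block the numbers called were 2 after LPS, 1 untreated, 4 and 5 for LPS in WT and Pim1-/- cells and 1 for the difference, so the block changed no call. For the ratios the smallest p that 3 pairs allow is 0.25 (exact), reached by all but Il12b to Il23a (0.5). For the 5416 genes whose mean reached 10 FPKM the same-number correlations were -0.07 to 0.34, so these correlations depend on the genes used.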
